A study of Mus musculus with 9 samples.

Results

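The expression of 10 chemokine and cytokine genes made by cultured fibroblasts (Ccl2, *Ccl7*, *Cxcl1*, *Cxcl5*, *Cxcl10*, *Cxcl12*, *Il6*, *Lif*, *Csf1* and *Il33*) was examined in mouse embryonic fibroblasts (MEFs), primary connective tissue cells grown from minced embryos. The genes were chosen by name for their known products, with earlier results of these data known. They are 10 of the 43629 genes in the table of RNAseq counts, and all 10 were among the 14567 genes with enough reads to be tested. The study compared MEFs of 4 WT and 5 Dp1Tyb littermate embryos at E14.5 of strain C57BL/6J.129P2, 1 culture per embryo. Dp1Tyb mice carry Dp(16Lipi-Zbtb21)1TybEmcf, a duplication of the stretch of Mmu16 from *Lipi* to *Zbtb21* that is orthologous to human chromosome 21, and model Down syndrome. None of the 10 genes lies on Mmu16, so each is present in the normal copy number in both genotypes. All cultures were untreated and shared one medium. Heads and viscera had been removed before the embryos were minced, and trypsin was used to lift the cells before RNA was taken.

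The 10 products carry signals from connective tissue to blood cells and to other fibroblasts. Chemokines are small secreted proteins that draw leukocytes along a gradient. CC chemokines such as CCL2 and CCL7 act mainly on monocytes, CXC chemokines such as CXCL1 and CXCL5 on neutrophils, and CXCL10 on activated T cells. CXCL12 holds blood stem cells and lymphocytes in their niches. IL-6 and LIF are cytokines of one family that signal through the shared receptor subunit gp130 and the transcription factor STAT3, CSF1 keeps macrophages alive, and IL-33 is a nuclear protein that acts as an alarm signal when cells are damaged. Many of these genes are switched on within hours by the transcription factor NF-kB.

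Total counts ranged from 25571442 to 30009361 in WT and from 24804539 to 26782380 in Dp1Tyb cultures. Levels of one gene across cultures are given as TMM-scaled CPM, the counts of a gene relative to the library total after edgeR's scaling. Summed CPM of 10 fibroblast markers, collagens and matrix genes among them, was 47040 to 58230 in WT and 41180 to 68270 in Dp1Tyb cultures. Dp1Tyb replicate 2 was the lowest culture for 7 of these markers and WT replicate 1 for the other 3. WT replicate 1 and Dp1Tyb replicate 1 carry the sample prefix MEF1 and the other 7 cultures the prefix MEF2, whose meaning is not given, and they are called sets here. Dp1Tyb replicate 2 and WT replicate 1 stood farthest from the other cultures of their genotype. Their root mean square distance over all genes tested was 0.615 and 0.502 on the log2 scale, against 0.26 to 0.414 for the other cultures. Over the 10 chemokine and cytokine genes it was 1.24 in Dp1Tyb replicate 2 and 1.35 in WT replicate 1, against 0.421 to 0.835.

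Per kilobase of annotated exon, the most abundant mRNAs were those of *Ccl7* and *Cxcl12* and the least abundant that of *Cxcl10*. All annotated exons of a gene were joined for this length, 801 bases for *Ccl7* and 8176 for *Cxcl12*, so the order depends on it. By mean CPM over the 9 cultures, *Cxcl12* was at 728 and *Ccl7* at 84.6. The mean RPKM (CPM per kilobase of exon) over the 9 cultures was 105.6 for *Ccl7*, 89.1 for *Cxcl12*, 55.5 for *Ccl2*, 52.2 for *Csf1* and 30.3 for *Cxcl5*. *Cxcl1* followed at 9.78 and *Lif* at 8.37. *Il33* at 2.89, *Il6* at 2.88 and *Cxcl10* at 1.74 RPKM formed the lower end. Several neighbours in this order could not be separated, since *Ccl7* was above *Cxcl12* in 5 of 9 cultures, *Cxcl1* above *Lif* in 4, *Il33* above *Il6* in 4 and *Il6* above *Cxcl10* in 5. *Csf1* was above *Cxcl5*, *Cxcl5* above *Cxcl1* and *Lif* above *Il33* in all 9 cultures.

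The genes lie on 5 chromosomes (GRCm38, GENCODE M21). *Ccl2* (ENSMUSG00000035385, chr11:82035571-82037453) and *Ccl7* (ENSMUSG00000035373, chr11:82045712-82047525) are neighbours on the plus strand of chromosome 11, 8.26 kb apart with no coding gene between them. *Cxcl5* (ENSMUSG00000029371, chr5:90759360-90761624) and *Cxcl1* (ENSMUSG00000029380, chr5:90891241-90893115) belong to a CXC cluster on chromosome 5, 129.62 kb apart with *Ppbp*, *Pf4*, *Cxcl3* and *Cxcl15* between them. *Cxcl10* (ENSMUSG00000034855, chr5:92346638-92348889, minus strand) lies further along this chromosome, and *Il6* (ENSMUSG00000025746) spans chr5:30013114-30019981. *Lif* (ENSMUSG00000034394) spans chr11:4257557-4272514, *Cxcl12* (ENSMUSG00000061353) chr6:117168535-117181367, *Csf1* (ENSMUSG00000014599) chr3:107741048-107760469 on the minus strand and *Il33* (ENSMUSG00000024810) chr19:29925114-29960718. *Cxcl10* overlaps *Art3* on the opposite strand, which had 47 counts over all cultures, and *Ccl2* overlaps *Gm17268*, which had 0.

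Promoters of 7 of the 10 genes were matched by symbol to RefSeq (GRCm38.p6). The 250 bases before the transcript start were searched on both strands for 4 motifs. These were the kappaB motif bound by NF-kB and the interferon-stimulated response element (ISRE, read as GAAA, any 2 bases and GAAA again). The others were the AP-1 motif TGANTCA and the TATA motif TATAAA. The kappaB motif was present in *Cxcl1*, *Cxcl10*, *Il6*, *Lif* and *Csf1*, and in 7.25% of the 32851 promoters in the table. The ISRE was present in *Cxcl10*, and in 2.98% of all promoters. The AP-1 motif was present in *Cxcl10*, *Il6* and *Lif*, and in 6.75% of all promoters. The TATA motif was present only in both *Il33* promoters, and in 12.4% of all promoters. *Cxcl12* held none of the 4 motifs, and both *Il33* promoters held none of the others. *Ccl2*, *Ccl7* and *Cxcl5* were not searched. The promoters of 4 genes are shown because the expression of their genes is followed in detail, running 5′ to 3′ on the gene's own strand and ending at the base before the start, with matches in capitals. They are chr5:90890995-90891244 (plus strand) for *Cxcl1*, chr5:92348890-92349139 (minus strand) for *Cxcl10*, chr5:30012864-30013113 (plus strand) for *Il6* and chr6:117168285-117168534 (plus strand) for *Cxcl12*.
Cxcl1: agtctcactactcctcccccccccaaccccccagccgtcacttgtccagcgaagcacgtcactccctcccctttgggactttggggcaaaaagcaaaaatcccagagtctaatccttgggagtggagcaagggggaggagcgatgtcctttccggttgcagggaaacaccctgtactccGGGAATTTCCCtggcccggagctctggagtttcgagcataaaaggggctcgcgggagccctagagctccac
Cxcl10: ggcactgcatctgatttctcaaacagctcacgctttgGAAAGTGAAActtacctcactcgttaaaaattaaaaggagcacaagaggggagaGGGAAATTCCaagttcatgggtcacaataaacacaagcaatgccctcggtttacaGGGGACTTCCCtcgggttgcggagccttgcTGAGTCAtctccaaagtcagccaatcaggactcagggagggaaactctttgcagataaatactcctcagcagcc
Il6: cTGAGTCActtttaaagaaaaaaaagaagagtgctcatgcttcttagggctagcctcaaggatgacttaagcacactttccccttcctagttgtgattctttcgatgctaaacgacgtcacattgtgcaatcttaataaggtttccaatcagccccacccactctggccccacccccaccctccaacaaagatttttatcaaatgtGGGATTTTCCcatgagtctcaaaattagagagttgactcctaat
Cxcl12: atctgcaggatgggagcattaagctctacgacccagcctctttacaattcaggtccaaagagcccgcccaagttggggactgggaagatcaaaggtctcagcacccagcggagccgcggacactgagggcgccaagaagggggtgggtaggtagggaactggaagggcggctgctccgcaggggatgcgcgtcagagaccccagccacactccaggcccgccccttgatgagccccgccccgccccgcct

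In *Cxcl1*, matches to kappaB at -71 to -62 and at -70 to -61 from the start overlap and print as 1 stretch. In *Cxcl10*, the capitals mark in order the ISRE at -213 to -204, a kappaB match at -159 to -150, an overlapping pair of kappaB matches from -104 to -94 and an AP-1 match at -74 to -68. In *Il6* they mark an AP-1 match at -249 to -243 and a kappaB match at -44 to -35. These matches describe the letters only. Binding was not measured.

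Whether the duplication alters these signals was asked by comparing the genotypes gene by gene. None of the 10 genes was called. Quasi-likelihood tests in edgeR, adjusted by the Benjamini-Hochberg method over all 14567 genes, called 24 genes, 0.165% of those tested, all higher in Dp1Tyb. The adjusted p was 1 for each of the 10. At an unadjusted p below 0.05 edgeR picked 0 of the 10, against 456 genes (3.13%) of all tested. DESeq2 also called 0 of them, against 0.418% of the genes it adjusted, and its one unadjusted p below 0.05 was that of *Cxcl5*, 0.0366, where 2.28% of all genes were below that limit. Values of WT and Dp1Tyb cultures overlapped for all 10 genes. Of all genes tested, 1.36% did not overlap. The fitted change was above 0 for 6 genes and below 0 for 4, with a median log2 fold change of 0.09 beside 0.0027 over all genes tested.

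**Figure D1:**
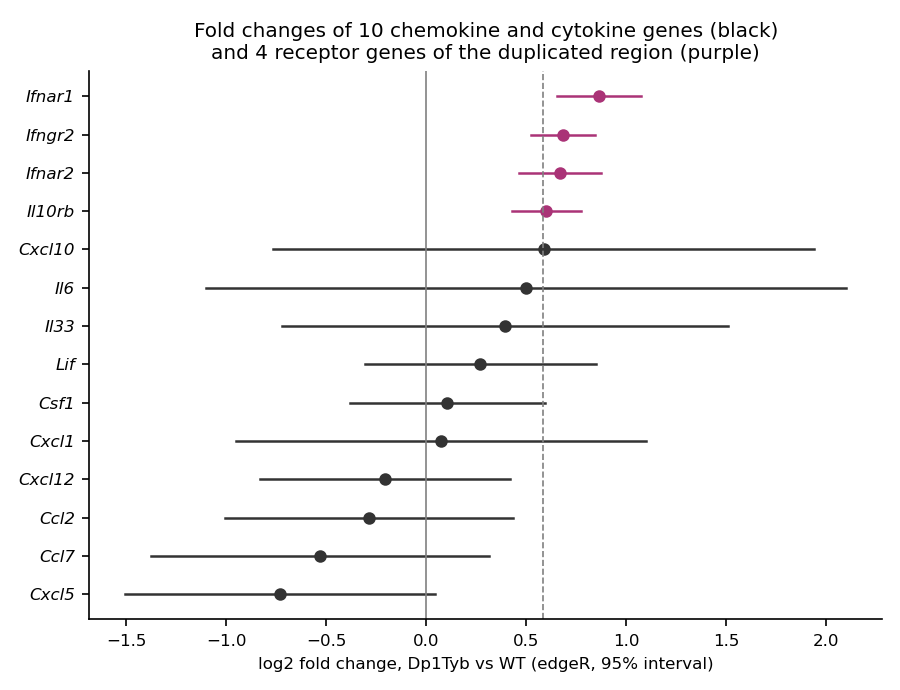
Fitted log2 fold change of Dp1Tyb vs WT (points) with its 95% interval (lines) from edgeR for the 10 chemokine and cytokine genes (black) and 4 receptor genes of the duplicated region (purple), with 0 as a solid line and a 1.5-fold rise as a dashed line. The intervals of all 10 black genes include 0, from Csf1 with the narrowest to Il6 with the widest.

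The CC chemokine genes varied widely among WT cultures and little among Dp1Tyb cultures. *Ccl2* was at 25.1, 102.5, 93.0 and 60.0 CPM in WT replicates 1 to 4 and at 59.3, 57.6, 61.3, 57.4 and 51.9 CPM in Dp1Tyb replicates 1 to 5. The 5 Dp1Tyb cultures lay close together, inside the range of the WT cultures, whose lowest was WT replicate 1. WT cultures averaged 70.2 ± 35.1 CPM (SD, n = 4) and Dp1Tyb cultures 57.5 ± 3.50 CPM (SD, n = 5), a log2 fold change of -0.29 (SE 0.32, 95% interval -1.01 to 0.44).

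*Ccl7* repeated this arrangement of cultures. Its CPM was 31.6, 155, 146 and 75.7 in WT replicates 1 to 4 and 75.6, 57.0, 73.3, 78.5 and 68.8 in Dp1Tyb replicates 1 to 5. WT replicates 2 and 3 were above every Dp1Tyb culture and WT replicate 1 was below every one. The log2 fold change was -0.53 (SE 0.38, 95% interval -1.37 to 0.31).

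For both CC chemokine genes the sets gave opposite directions. The edgeR log2 fold change within set MEF2 was -0.58 for *Ccl2* and -0.86 for *Ccl7*. In set MEF1, with 1 culture of each genotype and so no test, Dp1Tyb was higher by 1.22 for *Ccl2* and 1.25 for *Ccl7* in log2(CPM + 0.5), the scale used for set MEF1 throughout. Without WT replicate 1, the edgeR estimate moved to -0.56 for *Ccl2*, at an unadjusted p of 0.00546 and an adjusted p of 0.889, and to -0.83 for *Ccl7*, at an unadjusted p of 0.00416 and an adjusted p of 0.773. Neither was called there. Other cultures moved it the opposite way, to -0.05 for *Ccl2* and -0.25 for *Ccl7* without WT replicate 2, and to -0.12 and -0.31 without WT replicate 3.

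**Figure D2:**
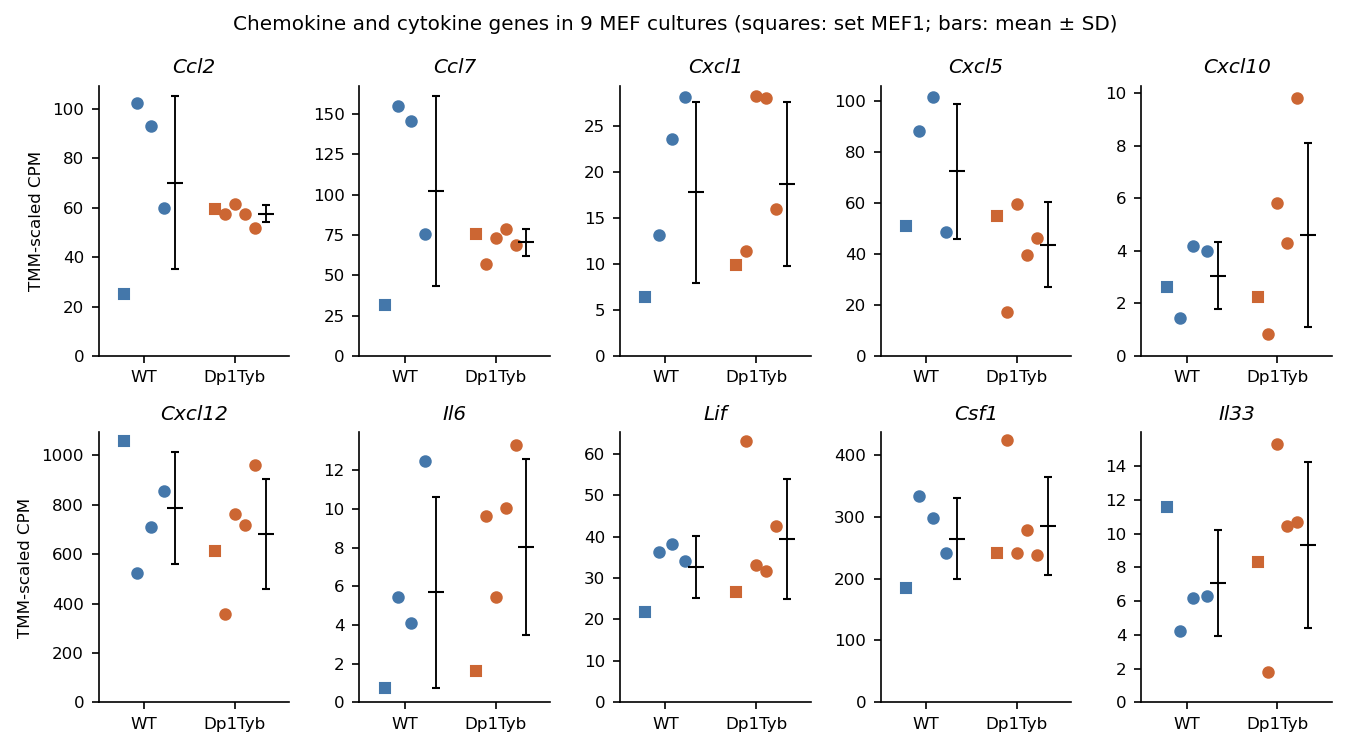
TMM-scaled CPM of the 10 genes in each WT (blue) and Dp1Tyb (orange) culture, with squares for set MEF1 and circles for set MEF2, and the mean ± SD of each genotype (black). Points of the genotypes overlap in every panel, and Ccl2 is the tightest in Dp1Tyb, between 51.9 and 61.3 CPM.

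Among the CXC chemokines, *Cxcl5* had the lowest p of the 10 genes. It was at 50.9, 88.1, 102 and 48.8 CPM in WT replicates 1 to 4 and at 55.1, 17.4, 59.7, 39.8 and 46.2 CPM in Dp1Tyb replicates 1 to 5. WT replicates 2 and 3 were above all Dp1Tyb cultures, the other WT cultures were within the Dp1Tyb range, and Dp1Tyb replicate 2 was the lowest. The log2 fold change was -0.73 (SE 0.35, 95% interval -1.50 to 0.05), with an unadjusted p of 0.0624 from edgeR. It was -0.96 within set MEF2, and the cultures of set MEF1 differed by 0.11.

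*Cxcl1*, which lies in the same cluster, had another arrangement of cultures. Its CPM was 6.38, 13.2, 23.6 and 28.2 in WT replicates 1 to 4 and 9.86, 11.4, 28.3, 28.1 and 16.0 in Dp1Tyb replicates 1 to 5. Each genotype held both low and high cultures, and both cultures of set MEF1 were the lowest of their genotype. For *Cxcl1* the log2 fold change was 0.07 (SE 0.46, 95% interval -0.95 to 1.10).

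*Cxcl10*, the interferon-induced chemokine gene of the 10, was low and uneven. It was at 2.61, 1.45, 4.2 and 3.98 CPM in WT replicates 1 to 4 and at 2.23, 0.819, 5.83, 4.29 and 9.82 CPM in Dp1Tyb replicates 1 to 5. The Dp1Tyb cultures held both the lowest value, 20 counts in replicate 2, and the highest, 255 counts in replicate 5. The log2 fold change was 0.59 (SE 0.60, 95% interval -0.77 to 1.94). It was 0.69 within set MEF2, 0.86 without Dp1Tyb replicate 2 and 0.11 without Dp1Tyb replicate 5, and the cultures of set MEF1 differed by -0.19.

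*Cxcl12*, the niche chemokine gene, was at 1057, 522, 708 and 855 CPM in WT replicates 1 to 4 and at 613, 356, 761, 718 and 962 CPM in Dp1Tyb replicates 1 to 5. WT replicate 1 was the highest and Dp1Tyb replicate 2 the lowest, with the other cultures of the genotypes interleaved. Its log2 fold change was -0.20 (SE 0.28, 95% interval -0.83 to 0.42).

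Of the gp130 cytokines, *Il6* was the most variable gene of the 10. Its CPM was 0.754, 5.45, 4.08 and 12.5 in WT replicates 1 to 4 and 1.64, 9.66, 5.45, 10.1 and 13.3 in Dp1Tyb replicates 1 to 5. Both cultures of set MEF1 were the lowest of their genotype, with 24 counts in WT replicate 1, and the highest culture of each genotype was nearly level with that of the other. *Il6* had a log2 fold change of 0.50 (SE 0.71, 95% interval -1.10 to 2.10). It was 0.39 within set MEF2, 0.13 without WT replicate 1 and 1.24 without WT replicate 4, and the cultures of set MEF1 differed by 0.77.

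*Lif* was steadier than *Il6*. It was at 21.8, 36.4, 38.2 and 34.2 CPM in WT replicates 1 to 4 and at 26.7, 63.0, 33.1, 31.6 and 42.5 CPM in Dp1Tyb replicates 1 to 5. Dp1Tyb replicate 2 was the highest culture, and the others of both genotypes overlapped. This gave a log2 fold change of 0.27 (SE 0.26, 95% interval -0.31 to 0.85), which was 0.04 without Dp1Tyb replicate 2 and 0.12 without WT replicate 1.

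*Csf1*, the macrophage growth factor, had the narrowest interval. Its CPM was 185, 333, 298 and 242 in WT replicates 1 to 4 and 241, 424, 242, 279 and 238.5 in Dp1Tyb replicates 1 to 5. Dp1Tyb replicate 2 stood above all other cultures, and the other 4 Dp1Tyb cultures were within the WT range. The log2 fold change was 0.11 (SE 0.22, 95% interval -0.38 to 0.59), and it was -0.08 without Dp1Tyb replicate 2.

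*Il33* was at 11.6, 4.24, 6.20 and 6.29 CPM in WT replicates 1 to 4 and at 8.32, 1.80, 15.3, 10.5 and 10.7 CPM in Dp1Tyb replicates 1 to 5. Dp1Tyb replicate 2 was the lowest and Dp1Tyb replicate 3 the highest, on either side of all WT cultures. *Il33* had a log2 fold change of 0.39 (SE 0.50, 95% interval -0.72 to 1.51). It was 0.78 within set MEF2, 0.74 without WT replicate 1 and 0.14 without Dp1Tyb replicate 3, and the cultures of set MEF1 differed by -0.46.

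The direction was the same in both sets for *Il6* and *Lif*, and opposite for *Ccl2*, *Ccl7*, *Cxcl1*, *Cxcl5*, *Cxcl10* and *Il33*. For *Cxcl12* and *Csf1* it could not be given, since within set MEF2 their edgeR log2 fold changes of 0.01 and 0.02 had the opposite sign to their mean differences in log2(CPM + 0.5), -0.05 and -0.0058. A rise of 1.5-fold lay outside the 95% interval for *Ccl2*, *Ccl7*, *Cxcl5* and *Cxcl12* and inside it for the other 6 genes. A fall of 1.5-fold lay outside the interval only for *Lif* and *Csf1*, whose lower ends were -0.31 and -0.38. It lay inside the intervals of *Ccl2*, *Ccl7*, *Cxcl5* and *Cxcl12*, so these were not bounded against a change in either direction.

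The cultures of one genotype differed from each other more in these genes than in most genes tested. The SD of log2(CPM + 0.5) between cultures of one genotype, pooled over the genotypes, was 1.22 for *Il6*, 0.95 for *Cxcl10*, 0.89 for *Il33* and 0.80 for *Cxcl1*. It was 0.71 for *Ccl7*, 0.64 for *Cxcl5*, 0.60 for *Ccl2*, 0.49 for *Cxcl12*, 0.43 for *Lif* and 0.36 for *Csf1*. The median over the 10 genes was 0.67, against 0.20 over all genes tested. All 10 were above the median of genes within 2-fold of their own level, and 9 of 10, all but *Csf1*, were above 90% of such genes. *Il6* had a larger SD than 99.2% of all genes tested, *Cxcl10* than 98.1% and *Csf1* than 79.8%. From the lowest to the highest culture, the ratio of CPM was 17.7 for *Il6*, 12 for *Cxcl10*, 8.50 for *Il33* and 2.29 for *Csf1*.

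**Figure D3:**
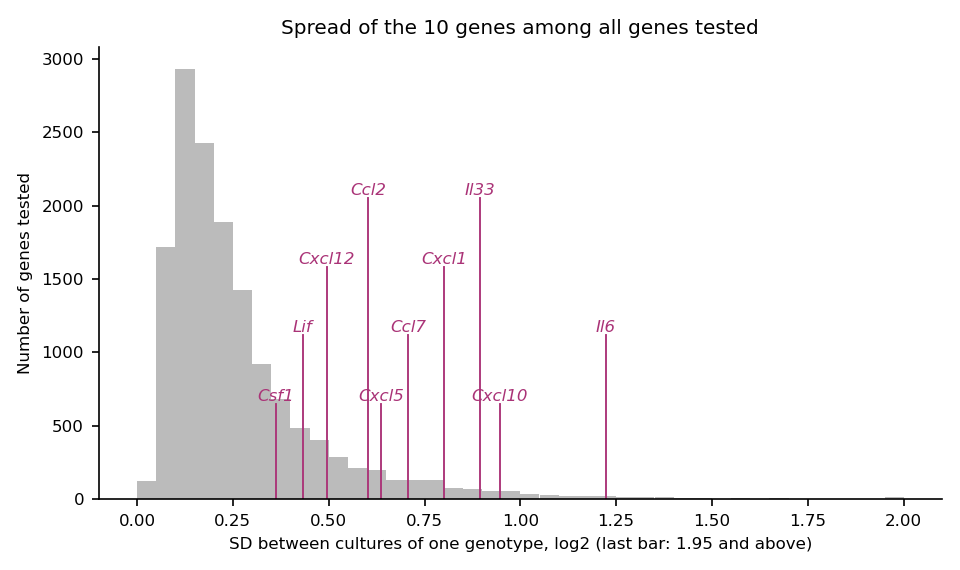
Number of genes (grey bars) by the SD of log2(CPM + 0.5) between cultures of one genotype, over the 14567 genes tested, with the 10 chemokine and cytokine genes as purple lines (line heights carry no value). Most genes lie below the 10, whose SDs run from 0.36 for Csf1 to 1.22 for Il6.

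The genotypes did not share one pattern of spread. The SD of log2 CPM was 0.91 in WT and 0.09 in Dp1Tyb cultures for *Ccl2*, and 1.06 and 0.18 for *Ccl7*. It was 0.59 in WT and 1.14 in Dp1Tyb for *Cxcl10*, and 0.56 and 1.08 for *Il33*. The SD was larger in Dp1Tyb for 5 of the 10 genes, and a difference in spread between the genotypes was not tested.

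A pair of cultures held all the lowest values. WT replicate 1 was the lowest of the 9 cultures for *Ccl2*, *Ccl7*, *Cxcl1*, *Il6*, *Lif* and *Csf1*, and Dp1Tyb replicate 2 for *Cxcl5*, *Cxcl10*, *Cxcl12* and *Il33*. Over all genes tested, WT replicate 1 was the lowest culture for 23.2% and Dp1Tyb replicate 2 for 27.0%. Dp1Tyb replicate 2 was at the same time the highest culture for *Lif* and *Csf1*, so it was not low throughout. Over all genes tested it was the highest culture for 27.1%. Dp1Tyb replicate 1, the other culture of set MEF1, was below the mean of the other cultures of its genotype for 6 of the 10 genes and WT replicate 1 for 8.

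**Figure D4:**
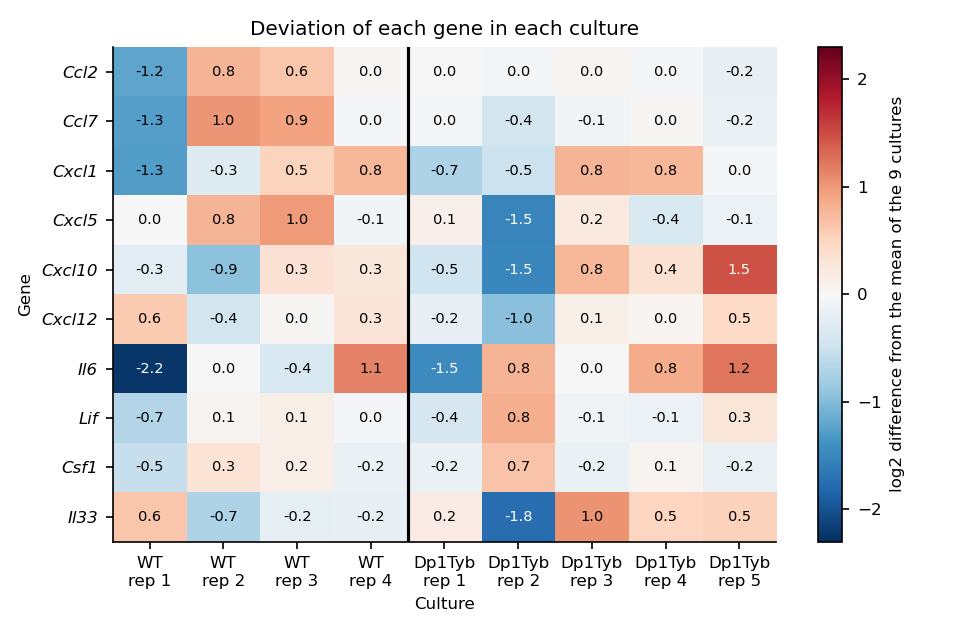
Difference of log2(CPM + 0.5) from the mean of the 9 cultures for each gene (rows) in each culture (columns), from blue (lower) to red (higher), with WT on the left of the black line and the difference printed in each cell. WT replicate 1 has the lowest value for 6 of the 10 genes and Dp1Tyb replicate 2 for the other 4.

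The 3 relations measured were between genes of one cluster or family, over the 9 cultures. *Ccl2* and *Ccl7* varied together by Pearson's r, but their rank correlation did not pass after adjustment. *Cxcl1* and *Cxcl5* did not vary together detectably, and the relation of *Il6* and *Lif* rested on both cultures of set MEF1. For *Ccl2* and *Ccl7*, Pearson's r was 0.968 (exact permutation p = 0.000791, adjusted over the 3 relations 0.00237) and Spearman's rho was 0.75 (exact permutation p = 0.0255, adjusted 0.0765). Without WT replicates 1 and 2, the cultures farthest from the median of *Ccl2*, r was 0.921 with an adjusted exact permutation p of 0.0994. There rho was 0.464 (adjusted exact permutation p = 0.907). Within set MEF2 r was 0.956 (n = 7, adjusted exact permutation p = 0.0357) and rho was 0.679 (adjusted exact permutation p = 0.329). Over deviations from the genotype means r was 0.976. Most of the spread lay among WT cultures, since *Ccl2* spanned only 51.9 to 61.3 CPM in Dp1Tyb cultures.

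For *Cxcl1* and *Cxcl5*, r was 0.19 (exact permutation p = 0.641, also after adjustment) and rho 0.083 (exact permutation p = 0.843). It was 0.219 without WT replicate 1 and Dp1Tyb replicate 3, and 0.338 within set MEF2. For *Il6* and *Lif*, r was 0.708 (exact permutation p = 0.0331, adjusted 0.0497) and rho was 0.567 (exact permutation p = 0.121, adjusted 0.181). Without WT replicate 1 and Dp1Tyb replicate 1, which also leaves set MEF2 alone, r fell to 0.199 (exact permutation p = 0.752). Set MEF1 holds 2 cultures and allows no correlation.

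Genes with the closest profiles were sought for the 3 most variable genes, *Il6*, *Cxcl10* and *Il33*. Likeness was the root mean square difference in log2 between profiles centred on their own means over the 9 cultures, so that 0 means identical. Nearest to *Il6* were *Dusp1*, a phosphatase gene induced by stress and growth factors, at 0.489, *Nr4a1*, an immediate-early nuclear receptor gene, at 0.522, and *Csrnp1* at 0.538, where the median over all genes tested was 1.14. Nearest to *Cxcl10* were *Ifi44* at 0.278, *Gbp3* at 0.315 and *Rsad2* at 0.322, all known interferon-induced genes, with a median of 0.866. Nearest to *Il33* were *Slfn8* at 0.174, *Adamts9* at 0.187 and *Sp100* at 0.198, with a median of 0.810. Like *Cxcl10* itself, *Ifi44*, *Gbp3* and *Rsad2* were lowest in Dp1Tyb replicate 2 and highest in Dp1Tyb replicate 5. *Slfn8*, *Adamts9* and *Sp100* were lowest in Dp1Tyb replicate 2 and highest in Dp1Tyb replicate 3, as *Il33* was. None of *Dusp1*, *Nr4a1* and *Csrnp1* shared both the lowest and the highest culture of *Il6*. *Dusp1* was highest in WT replicate 4, *Nr4a1* lowest in Dp1Tyb replicate 1 and *Csrnp1* highest in Dp1Tyb replicate 2. Since the genes were picked for likeness over the same 9 cultures, shared extreme cultures follow largely from that choice.

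The genes around these signals were taken from lists of ligands, receptors and response genes. DESeq2 called 4 genes of these lists, the same receptor genes of the duplicated region that edgeR called. Of 28 other chemokine ligands, 20 were tested and 0 were called in either direction (edgeR, 0 also at an unadjusted p below 0.05), with a median log2 fold change of 0.07. *Ccl22* and *Xcl1* had no count in any culture. The most abundant per length was *Cxcl14*, with a mean of 94.6 RPKM, at 71.2 to 430 CPM in WT and 88.7 to 176 CPM in Dp1Tyb cultures. Like *Ccl2* and *Ccl7*, *Cxcl14* was lowest in WT replicate 1 and highest in WT replicate 2, with a log2 fold change of -0.82 (SE 0.43). *Ccl8*, a further CC chemokine gene of chromosome 11, was at 1.35 CPM in WT replicate 1 and 5.72 to 14.9 CPM in the other WT cultures. *Ppbp*, which lies between *Cxcl5* and *Cxcl1*, was also lowest in WT replicate 1, at 1.67 CPM, and highest in WT replicate 2, at 15.7 CPM.

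Receptors for the 10 products were not called either. Of 18 chemokine receptor genes 9 were tested and 0 called, and of 6 receptor genes for the cytokines all 6 were tested and 0 called (edgeR, 0 of either list at an unadjusted p below 0.05). *Ackr3*, the scavenging receptor for CXCL12, was at 31.4 to 45.9 CPM in WT and 33.7 to 52.0 CPM in Dp1Tyb cultures. *Il6st*, which encodes gp130, was at 536 to 798 CPM in WT and 373 to 666 CPM in Dp1Tyb cultures, lowest in Dp1Tyb replicate 2. *Il1rl1*, which encodes the receptor for IL-33, was at 174 to 894 CPM in WT and 223 to 634 CPM in Dp1Tyb cultures, with WT replicate 1 the lowest and WT replicate 2 the highest.

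Genes for signalling proteins downstream of the ligands were then examined. Of 10 JAK-STAT3 genes and 14 genes for NF-kB subunits and inhibitors, all were tested and 0 were called (edgeR, 0 at an unadjusted p below 0.05), with a median log2 fold change of -0.07 and -0.01. Their median SD between cultures of one genotype was 0.22 and 0.16, near the 0.20 of all genes tested, although it was 0.73 for *Tnfaip3*, 0.67 for *Nfkbiz*, 0.66 for *Nfkbia* and 0.59 for *Pim1*, which are named after their values were seen. *Stat3* was at 337 to 425 CPM in WT and 380.5 to 434 CPM in Dp1Tyb cultures, and *Rela*, an NF-kB subunit gene, at 57.6 to 71.7 and 61.9 to 72.1 CPM. *Nfkbia*, which encodes an inhibitor that NF-kB itself induces, was at 14.7 to 46.5 CPM in WT and 14.2 to 41.3 CPM in Dp1Tyb cultures.

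Other cytokine genes and NF-kB targets gave 0 calls from edgeR. Of 18 cytokine genes 14 were tested, with *Clcf1* alone at an unadjusted p below 0.05, and of 15 NF-kB targets 13 were tested, with *Ptges* alone below it. *Ptgs2*, which encodes the inducible enzyme of prostaglandin synthesis, was at 36.9 CPM in WT replicate 1 and 673 CPM in Dp1Tyb replicate 2, with the other cultures between 121 and 428 CPM. *Mmp3*, a matrix protease gene, was lowest in WT replicate 1 at 60.7 CPM and highest in WT replicate 2 at 320 CPM.

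Receptor genes were called in 1 list, and all 4 lie within the duplicated region. *Ifnar1* and *Ifnar2* encode the receptor for type I interferon, *Ifngr2* a chain of the receptor for interferon gamma, and *Il10rb* a chain shared by receptors of the IL-10 family. *Ifnar1* was at 69.1 to 92.2 CPM in WT and 136 to 151 CPM in Dp1Tyb cultures (log2 fold change 0.86, SE 0.09, edgeR adjusted p = 0.0102). The log2 fold change was 0.67 for *Ifnar2* (edgeR adjusted p = 0.0263), 0.68 for *Ifngr2* (edgeR adjusted p = 0.0102) and 0.60 for *Il10rb* (edgeR adjusted p = 0.0183). The genotypes did not overlap for any of the 4, where 0.686% of all genes tested were higher in Dp1Tyb without overlap. Their differences in mean log2(CPM + 0.5) were 0.58 to 0.93 in set MEF2 and 0.58 to 0.69 in set MEF1. The calls were not kept throughout, and 0 of the 4 were called without WT replicate 2, WT replicate 3 or Dp1Tyb replicate 5, or within set MEF2. It was 2 of the 4 without WT replicate 1, WT replicate 4 or Dp1Tyb replicate 1, 3 or 4.

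Among interferon-stimulated genes, which act downstream of these receptors, all 14 were tested and 0 were called (edgeR, 0 at an unadjusted p below 0.05), with a median log2 fold change of 0.13. Their summed level was 381, 206, 395 and 312 CPM in WT replicates 1 to 4 and 299, 88.1, 490, 346 and 485 CPM in Dp1Tyb replicates 1 to 5. Dp1Tyb replicate 2 was the lowest culture for all 14, as it was for *Cxcl10*. *Isg15*, a ubiquitin-like protein gene, was at 5.65 CPM there and at 28.3 to 70.8 CPM in the other Dp1Tyb cultures.

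**Figure D5:**
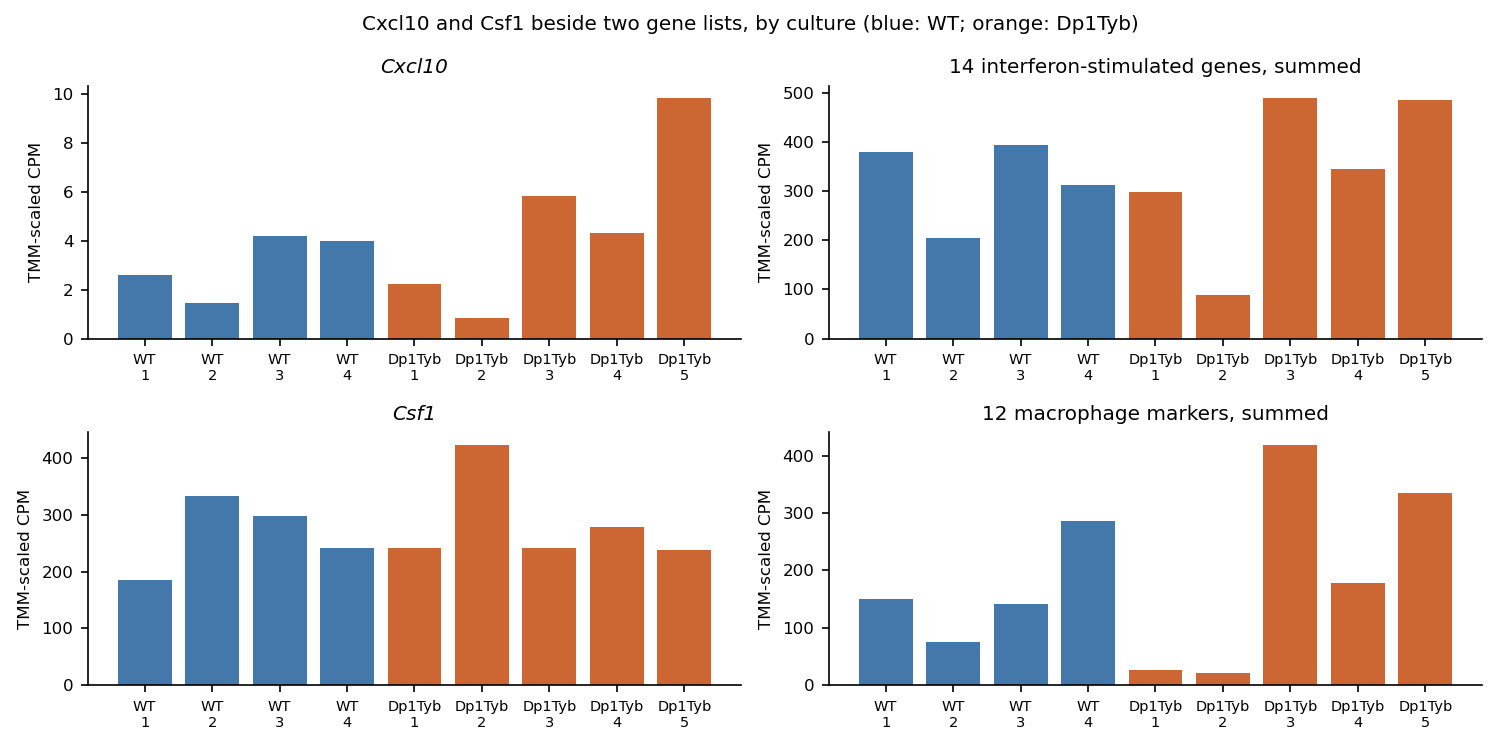
TMM-scaled CPM in each WT (blue) and Dp1Tyb (orange) culture of Cxcl10, of 14 interferon-stimulated genes summed, of Csf1 and of 12 macrophage markers summed. Dp1Tyb replicate 2 is the lowest for Cxcl10 and for both summed lists and the highest for Csf1, at 424 CPM.

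Markers of other cells differed between the cultures. In bulk RNA, fewer cells of a type and less RNA per cell cannot be told apart. All 12 macrophage markers were tested and 0 were called (edgeR, 0 at an unadjusted p below 0.05), and none was at 0 in every culture. DESeq2 called 0 of them too. Their summed level was 151, 75.8, 142 and 286 CPM in WT replicates 1 to 4 and 26.1, 20.5, 420, 177 and 334 CPM in Dp1Tyb replicates 1 to 5. Each genotype held low and high cultures. *Csf1r*, the receptor through which CSF1 acts on macrophages, was at 4.59 to 17.1 CPM in WT, at 1.35 and 1.43 CPM in Dp1Tyb replicates 1 and 2 and at 11.3 to 23.8 CPM in the other Dp1Tyb cultures. *Csf1* was highest in Dp1Tyb replicate 2, where the markers were lowest.

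Some chemokine and cytokine genes outside the 10 were high in the 4 cultures with the highest summed macrophage markers. They are named here after their values were seen. *Ccl3*, a chemokine gene typical of macrophages, was at 5.65 CPM in WT replicate 4 and 11.1, 3.17 and 8.28 CPM in Dp1Tyb replicates 3 to 5, and at 0.848 CPM or less in the other 5 cultures. *Tnf* was at 13.7 CPM in WT replicate 4 and 24.2, 7.17 and 15.3 CPM in Dp1Tyb replicates 3 to 5, and at 0.578 CPM or less elsewhere. *Cxcl2*, *Ccl4* and *Il1b* had the same 4 cultures above the other 5. WT replicates 1 and 3 had summed macrophage markers of 151 and 142 CPM, near the 177 CPM of Dp1Tyb replicate 4. Their *Tnf* was nevertheless at 0.503 and 0.578 CPM. Of the 10 genes, *Cxcl1* had its 3 highest values in Dp1Tyb replicate 3, WT replicate 4 and Dp1Tyb replicate 4. *Cxcl10* had them in Dp1Tyb replicates 5, 3 and 4, and for both genes all 3 were among the 4 cultures. Neither gene had all 4 cultures above the other 5, since WT replicate 3 came next for both. *Cxcl1* was at 23.6 CPM in WT replicate 3 and at 16.0 CPM in Dp1Tyb replicate 5. *Cxcl10* was at 4.2 CPM in WT replicate 3 and at 3.98 CPM in WT replicate 4. *Il6* was highest in Dp1Tyb replicate 5 and WT replicate 4, and it was at 9.66 CPM in Dp1Tyb replicate 2, where the markers were lowest. The part of macrophages in the levels of the 10 genes was not tested.

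Summed markers of Schwann and neural crest cells were at 30.7 to 62.3 CPM in WT and 9.78 to 30.0 CPM in Dp1Tyb cultures, with 5 of 6 tested and 0 called by edgeR (4 at an unadjusted p below 0.05) and 3 called by DESeq2. Those of skeletal muscle were at 7.17 to 16.3 CPM in WT and 13.4 to 38.9 CPM in Dp1Tyb cultures. Of these 6 markers 2 were tested, with 0 called by edgeR (both at an unadjusted p below 0.05) and 2 called by DESeq2. Nearly all of the sum was *Des*, at 6.70 to 16.1 CPM in WT and 12.9 to 38.1 CPM in Dp1Tyb cultures. *Myod1*, *Myog*, *Ckm* and *Actn2* had too few reads to be tested. Endothelial markers summed to 4.74 to 18.5 CPM and epithelial markers to 8.47 to 20.5 CPM over all cultures, with 3 of 6 of each tested and 0 called by either tool. Their part in the levels of the 10 genes was not tested.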

How the data were processed

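Embryos were the source of the 9 MEF cultures, whose genotypes were taken from the labels. Libraries were made by the authors with a stranded mRNA kit. Per the labels and methods, the authors trimmed reads with Trim Galore, mapped them to GRCm38 with TopHat2 2.0.12, discarded reads with several alignments and counted the rest with htseq-count. The strand option and the annotation release are not given in the sources used here. The deposited count table holds these raw counts per Ensembl gene, and it was the only file used. A deposited table of normalised counts, and a deposited table of the authors' own comparison by DESeq2 1.6.3 (fold changes and p-values), were not used.

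Of 43629 genes, 42548 were matched to GENCODE M21 for symbols, positions and exon lengths, and 24467 had a count. Main tests used edgeR 4.0.16 in R 4.3.3 on the counts of all 9 cultures, with TMM scaling, edgeR's filter on low counts, genotype as the sole term, quasi-likelihood tests (two-sided) and Benjamini-Hochberg adjustment, called at an adjusted p below 0.05. SEs were derived from the fold change and the F statistic, with 95% intervals. Log2 values of single cultures had 0.5 CPM added. Correlations were tested over all 362880 orders of the cultures, two-sided, with Python 3.11.15 and scipy 1.17.1. The edgeR fit and the permutation test were each tried on simulated data. Intervals and counts cover the spread between these cultures and counting error, since reads carry no molecular identifiers.

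The 10 genes and all lists were chosen with earlier results of these data known. Beside the 10 genes, the rule for naming took from each list the genes called or otherwise up to 3 with the highest mean RPKM, and the 3 genes with the closest profiles for each of the 3 most variable genes. Alternatives were DESeq2 1.42.0, its size factors, no filter and a filter at 10 counts, the set as a covariate, set MEF2 alone, the replicate block, other pseudocounts and each culture left out.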

Additional observations from a re-analysis of the deposited data

Results flagged for a closer look

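In a group of 4 or 5 cultures, a culture was singled out where its gap to the nearest of the others took up more of the whole range than Dixon's 95% limit. Of 76 groups of named genes 7 were singled out, and chance picks about 1 in 20. Of the 20 groups of the 10 chemokine and cytokine genes this held for 1, *Csf1* in Dp1Tyb cultures, at 424 CPM in Dp1Tyb replicate 2 against 238 to 279 CPM in the others.

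The same culture, Dp1Tyb replicate 2, was singled out for 3 further genes, as the lowest each time. *Il6st*, which encodes gp130, was at 373 CPM there and at 570 to 666 CPM in the other Dp1Tyb cultures. *Stat2*, which carries interferon signals to the nucleus, was at 30.3 CPM there against 91.7 to 122 CPM. *Ifnar1* was at 136 CPM there against 147 to 151 CPM, still above all WT cultures.

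In WT replicate 4, *Ccrl2*, an atypical chemokine receptor gene, was at 4.02 CPM against 0.235 to 0.283 CPM in the other WT cultures. *Ccrl2* was also at 5.75, 2.42 and 4.01 CPM in Dp1Tyb replicates 3 to 5, the other cultures with high *Ccl3* and *Tnf*, and at 0.614 CPM or less in Dp1Tyb replicates 1 and 2. *Icam1*, a leukocyte adhesion gene, was at 58.8 CPM in WT replicate 4 against 104 to 107 CPM. *Nfkbiz*, an NF-kB cofactor gene, was at 45.9 CPM in Dp1Tyb replicate 1 against 92.8 to 118 CPM in the other Dp1Tyb cultures.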

How the results depend on the processing

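None of the 10 genes was called under any of the 17 alternatives, and the smallest adjusted p among them was 0.773, for *Ccl7* without WT replicate 1. The number of genes called over the whole table was 24, and it was 68 with DESeq2, 1 within set MEF2 and 2 to 26 with each culture left out. Of the pathway lists, 4 genes were called, 0 within set MEF2 and 0 to 4 with each culture left out. The fold change of *Cxcl1* was near 0 and turned to -0.05 within set MEF2 and to between -0.21 and 0.39 with each culture left out. *Cxcl12* turned to 0.01 within set MEF2. *Csf1* was between -0.08 and 0.24 with each culture left out, at -0.03 without WT replicate 1. With each culture left out, the fold change was -0.56 to -0.05 for *Ccl2*, -0.83 to -0.25 for *Ccl7*, 0.11 to 0.86 for *Cxcl10*, 0.13 to 1.24 for *Il6*, 0.04 to 0.39 for *Lif* and 0.14 to 0.74 for *Il33*. For *Cxcl5* it was -0.87 to -0.52. The unadjusted edgeR p of *Cxcl5* was 0.0428 with no filter, 0.0466 within set MEF2 and 0.0459 without WT replicate 1. It was 0.0444 without WT replicate 4 and 0.0427 without Dp1Tyb replicate 3, and *Cxcl5* was called in none of these. The relation of *Il6* and *Lif*, r = 0.708, no longer passed the test with 1 CPM added (0.699), over deviations from the genotype means (0.682), within set MEF2 (0.199), without the 2 farthest cultures (0.199) or without 6 of the cultures in turn (0.508 to 0.812 over all 9). That of *Ccl2* and *Ccl7* no longer passed it without the 2 farthest cultures (0.921) and was 0.956 to 0.99 with each culture left out. That of *Cxcl1* and *Cxcl5* was -0.015 to 0.287, at -0.015 without Dp1Tyb replicate 2. The median SD of the 10 genes was 0.559 to 0.724 with each culture left out. The causes were not tested.

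Same-numbered WT and Dp1Tyb cultures had correlations of deviations of 0.308, 0.766, 0.037 and 0.367, over 0.1 in 3 of 4 pairs, and 1 of 4 WT cultures was closest to its own number, so the numbers were not taken as pairs. With the replicate block, edgeR called 0 genes (802 at an unadjusted p below 0.05) and 0 of the pathway lists, and the log2 fold change of *Cxcl10* turned to -0.06, while that of *Ccl2* was -0.09 and that of *Ccl7* -0.30. DESeq2 with the replicate block, chosen after seeing the data, called 87 genes and gave -0.05 for *Cxcl10*.

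Counts per culture were 20 to 255 for *Cxcl10*, 24 to 346 for *Il6* and at least 44 for the others. Counting error was not separated from the spread between cultures.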
